A study of Homo sapiens with 38 samples.

Results

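Broad DPPA4 domains were stretches of the genome that the broad domain caller EPIC2 reported as 1 DPPA4 domain of at least 5 kb in control cells of 2 H661 lines. EPIC2 joins enriched bins of 100 bp and can bridge gaps between them, so all lengths given here depend on its gap setting. Domains called in the shDPPA4 control library were kept when they were at least 5 kb long and overlapped, by at least 25% of the shorter one, a domain of at least 5 kb in the shDPPA2+4 control library. Overlapping pairs were merged. This gave 683 broad domains of 35107 DPPA4 domains of any length shared by the 2 libraries, from 76174 domains in the first (1515 of them at least 5 kb) and 44555 in the second (945). The regions were thus chosen by the length of the DPPA4 signal in these 2 libraries, and those lengths and read counts are given as a description only.

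Binding had been mapped by CUT&RUN, in which an antibody tethers a nuclease to a protein and the chromatin cut free around it is sequenced. NCI-H661 (H661), a large cell lung carcinoma line, makes its own DPPA2 and DPPA4. It was profiled as parental asynchronous cells (DPPA2 and 3 DPPA4 antibodies, 1 library each) and as 2 derived lines that carry doxycycline-inducible short hairpin RNAs on PiggyBac transposons, against DPPA4 (shDPPA4) or against DPPA2 and DPPA4 together (shDPPA2+4). Each derived line was a sorted population rather than a clone. The control arm received water and the doxycycline arm 2 µg/mL doxycycline, both for 7 days, and each antibody gave 1 library per line and arm: DPPA4 (N-terminal antibody) and RING1B in both arms, and PCGF1, MTF2 and EP300 in the control arm. NCI-H1299 (H1299) is a lung carcinoma line that lacks both proteins. It had been given DPPA2 with a Flag tag and DPPA4 with a V5 tag under doxycycline control and was profiled only after induction, with 6 antibodies in 2 replicates. CUT&RUN libraries of a line with a non-targeting hairpin, and RNA or protein levels, were not analysed here, so the effect of doxycycline itself and that of the hairpins cannot be told apart, and the depth of knockdown was not checked.

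DPPA2 and DPPA4 are small nuclear proteins of early embryos and pluripotent cells that bind together at CpG-rich chromatin and are re-expressed in some tumours. RING1B is the catalytic ubiquitin ligase of Polycomb repressive complex 1 (PRC1) and PCGF1 a subunit of a variant form of that complex. MTF2 brings Polycomb repressive complex 2 (PRC2) to unmethylated CpG islands, and EP300 is a histone acetyltransferase of active promoters and enhancers. Most promoter peaks of a chromatin factor are short, whereas Polycomb proteins and active marks can spread over whole gene clusters.

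The 5 sequences that follow are the CpG-richest 150-base windows of 5 of the 6 longest broad domains. They are shown because CpG content varied within and among these domains together with the proteins they carried. All are plus-strand sequence of hg38 with every CG in capitals.
HOXC9 (chr12:54000535-54000684): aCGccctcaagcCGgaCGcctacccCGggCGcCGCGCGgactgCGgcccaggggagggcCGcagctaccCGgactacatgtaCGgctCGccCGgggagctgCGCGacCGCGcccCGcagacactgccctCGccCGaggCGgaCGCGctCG
SERTAD1 (chr19:40425532-40425681): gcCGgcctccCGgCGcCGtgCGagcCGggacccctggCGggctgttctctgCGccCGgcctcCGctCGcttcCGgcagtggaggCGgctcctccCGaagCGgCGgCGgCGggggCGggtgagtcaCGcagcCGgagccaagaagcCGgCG
CBX8 (chr17:79802754-79802903): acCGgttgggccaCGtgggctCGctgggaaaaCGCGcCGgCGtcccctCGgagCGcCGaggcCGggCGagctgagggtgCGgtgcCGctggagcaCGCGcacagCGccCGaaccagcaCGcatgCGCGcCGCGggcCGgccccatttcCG
BAHCC1 (chr17:81399283-81399432): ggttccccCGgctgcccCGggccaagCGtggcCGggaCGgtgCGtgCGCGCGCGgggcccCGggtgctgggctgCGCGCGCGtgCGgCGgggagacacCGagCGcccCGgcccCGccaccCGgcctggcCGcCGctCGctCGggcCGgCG
NR2F1 (chr5:93585054-93585203): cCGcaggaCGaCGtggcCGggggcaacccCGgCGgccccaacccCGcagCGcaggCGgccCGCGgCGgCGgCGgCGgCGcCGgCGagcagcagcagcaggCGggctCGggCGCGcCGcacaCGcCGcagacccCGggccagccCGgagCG
The first window lies in the coding exon of HOXC9 and holds 25 CG, a number reached by 0.0296% of all such windows of the genome. The second is intronic in SERTAD1 (23 CG), the third lies outside any gene, upstream of CBX8 (25 CG), the fourth is intronic in BAHCC1 and the fifth is in a coding exon of NR2F1. The last 2 hold 28 CG each, reached by 0.00967% of windows.

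The broad domains covered 6.36 Mb. Merged lengths ran from 5099 to 57399 bp with a median of 7899, 187 were at least 10 kb and 22 at least 20 kb. The DPPA4 and IgG counts that follow, and IgG reads per kb below, came from the longest single domain of each region in each line. DPPA4 reads ranged from 235 to 12157 (median 961) in the shDPPA4 control, against 5 to 256 (median 25) in its IgG library. In the shDPPA2+4 control they ranged from 95 to 5603 (median 408) against 3 to 281 (median 27). Each merged broad domain held 1 to 21 narrow MACS2 peaks (median 3) in the first line and 1 to 24 (median 3) in the second, so the broad caller had joined several local maxima in most of them. The rule's limit cut through a continuum. Just inside it lay domains near CCNE1 (5399 bp in shDPPA4 and 5099 bp in shDPPA2+4), near SRC (5099 and 5299), near ZNF217 (10899 and 5099) and at PTCHD1 (5099 and 5099). Just outside it lay 57 pairs whose shorter member was 4999 bp, among them those at SMIM1 (7099 and 4999), RCC2 (4999 and 5099) and LMO4 (6399 and 4999) and 1 on chromosome 1 without a protein-coding promoter (4999 and 12699).

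The longest domain lay over the HOXC cluster, whose homeobox genes set position along the body axis (chr12:53971901-54029299). It spanned the promoters of HOXC11, HOXC10, HOXC9, HOXC8 and HOXC6 and the starts of 6 long non-coding RNAs, HOTAIR among them. The longest single DPPA4 domain there was 50699 bp in shDPPA4 control cells (12157 reads, IgG 256) and 56099 bp in shDPPA2+4 control cells (5603 reads, IgG 281). The order of the next was set by the shorter of the 2 lengths. PRX, SERTAD1 and SERTAD3 shared a domain (chr19:40400301-40450799), followed by CBX8, a chromodomain subunit of canonical PRC1 (chr17:79784701-79806899), PLEC, which encodes the cytoskeletal linker plectin, BAHCC1, a chromatin reader gene (chr17:81383001-81413399), and NR2F1, an orphan nuclear receptor of neural development (chr5:93577001-93609599). ZFP36 and PLEKHG2 on chromosome 19, TNRC18 on chromosome 7, the MIRLET7BHG host gene 69127 bp from the PPARA start (chr22:46052101-46081399) and SLC16A3, a lactate exporter gene on chromosome 17, completed the 10 longest.

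**Figure D1:**
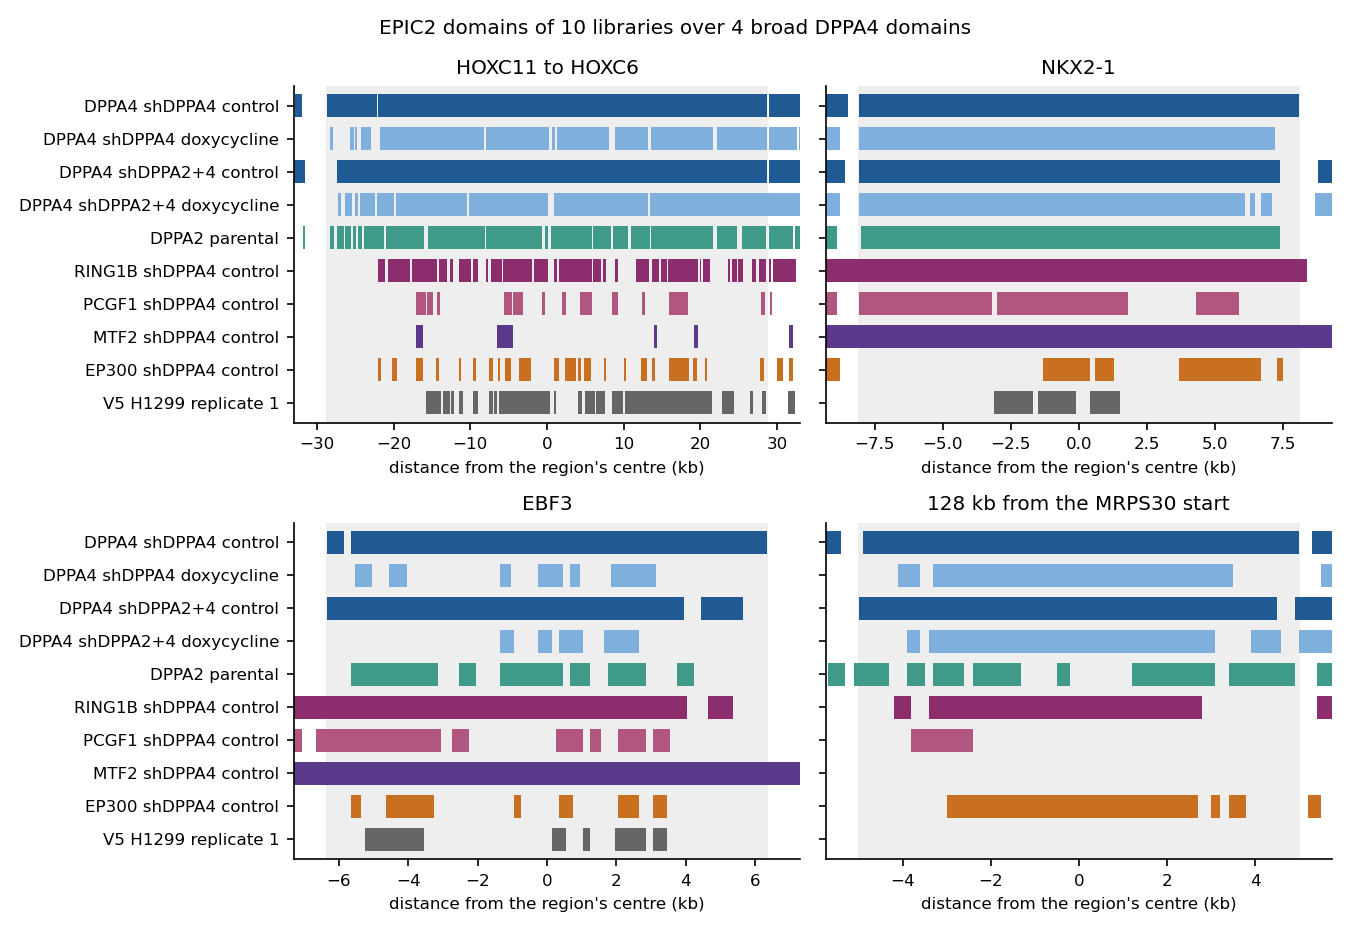
The 4 panels show broad domains (grey) to scale as distance from their centre in kb, with 1 row for each of 10 libraries and bars where that library had a domain. DPPA4 lay in shorter pieces in the doxycycline arms, MTF2 covered 100% of the EBF3 and NKX2-1 domains in shDPPA4 control cells, and near MRPS30, where MTF2 had no domain, EP300 covered 63.0% of the bases.

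Most broad domains sat on promoters, and many took in more than the start of 1 gene. A promoter (transcription start ± 1500 bp) of a protein-coding gene was touched by 473 of 683 broad domains, 69.3% (exact binomial 95% interval 65.6 to 72.7, counting error only). The background share over all 35107 shared domains was 36%, and shares of 62.7% and 41.5% were measured for shared domains of 2 to 5 kb and of 1 to 2 kb. Length differs between these classes by their definition, and its part in the order was not tested. Promoters of 622 genes were involved, 3.11% of 19970, and 100 domains (14.6%) held at least 2. In the 366 domains with a single start, the signal reached a median of 3604 bp upstream and 4041.5 bp downstream of it, extended farther downstream in 203 (55.5%), and enclosed the whole gene in 79. Of the 210 domains without such a promoter, 67 held the start of a long non-coding RNA, 85 lay inside a protein-coding gene and 58 lay outside.

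Promoters on the developmental transcription factor lists lay in 61 of the 683 broad domains. Among the 39 HOX genes, 20 (51.3%) had a promoter in a broad domain and 37 in a shared domain of any length, where over all protein-coding genes these shares were 3.11% and 67.2%. They came from all 4 clusters: HOXA2, HOXA5, HOXA6 and HOXA13, HOXB2 to HOXB8, HOXC5, HOXC6 and HOXC8 to HOXC12, and HOXD9 and HOXD11. Other lists gave 2 of 5 ZIC genes (ZIC2 and ZIC5), 2 of 6 DLX genes (DLX1 and DLX2 in 1 domain of 32599 bp), 2 of 6 GATA genes (GATA2 and GATA3), 3 of 9 PAX genes (PAX2, PAX6 and PAX9), 4 of 19 SOX genes (SOX2, SOX3, SOX8 and SOX18) and 5 of 52 FOX genes. The lowest shares among these lists were 1 of 19 POU, 1 of 16 T-box and 1 of 15 other homeobox genes. The bHLH list contributed 8 of 33, namely the Notch targets HES1, HES4, HES5, HES7 and HEY1 and the dimerisation inhibitors ID1, ID2 and ID3. The FZD5, FZD7, FZD8 and FZD9 receptors and the ligand WNT11 were 5 of 29 genes of the Wnt list.

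Chromatin genes were also present. Of 39 Polycomb genes, 6 had a promoter in a broad domain, among them CBX8 and PCGF2, subunits of canonical PRC1, the non-canonical PRC1 components BCOR and KDM2B, and EPOP, which binds PRC2. SETD1B and KMT2C, which methylate histone H3 lysine 4, were 2 of 7 in their list. Histone genes gave 20 of 86, in domains that ran over several neighbouring genes, such as H2AC13, H2AC14, H2BC13, H2BC14 and H3C10 (11799 bp on chromosome 6). Below the 3.11% of all protein-coding genes lay 9 of 509 ZNF genes (1.77%) and 1 of 96 potassium channel genes (1.04%). Protocadherins were near it at 2 of 65 (3.08%) and ribosomal protein genes above it at 4 of 84 (4.76%). None of 20 semaphorins or 22 ephrins and their receptors was found, lists too short to set against that share. The neighbours differed in their companions. Over the 5 histone genes just named, averaged over the 2 control lines, RING1B covered 55.5%, EP300 33.0% and MTF2 0%, and DPPA4 kept 74.1% in the doxycycline arms. At H3C12, H2AC17 and H2BC17 (chr6:27889301-27896699) these values were 69.6%, 68.2%, 3.37% and 92.6%. The list shares carry no test, since the lists and regions were chosen with results of these data known.

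Chromosomes differed in how many broad domains they held. Chromosome 19 had 79, chromosome 17 had 64 and chromosome 20 had 41, the last being 7.51 per 100 protein-coding genes, the highest rate. Chromosome 21 had none on 220 genes, chromosome 4 had 9 (1.19 per 100 genes) and chromosome X 8. Shared DPPA4 domains of any length are not given by chromosome here, so these counts are not set against that background. The IgG background also varied by chromosome: its median inside broad domains was 3.20 and 3.87 reads per kb in the shDPPA4 and shDPPA2+4 lines, and reached 5.50 and 5.74 on chromosome 6, 4.67 and 5.01 on chromosome 5 and 4.66 and 4.91 on chromosome 14. It was more than 2 times the median in 93 and 61 broad domains. Each domain was called over its own IgG count, and the part of copy number in these values was not tested.

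Parental H661 cells, which did not take part in the choice, carried DPPA2 over more than 50% of the bases of the median broad domain, whereas DPPA4 coverage differed by antibody. DPPA2 domains covered a median of 59.1% of a broad domain, and at least 50% of the bases in 66.3% of broad domains (background 18.5%), against a median of 42.3% and a share of 36.3% for shared domains of 2 to 5 kb. The N-terminal DPPA4 antibody, the one used in the derived lines, covered a median of 44.8% and at least 50% of the bases in 35% of broad domains (background 11.4%; 23.9% for 2 to 5 kb). A further DPPA4 antibody gave a median of 55%, and the C-terminal DPPA4 antibody only 8.95%. Long single domains were few in these parental libraries. A domain of at least 5 kb was called in 67 broad domains (9.81%) for DPPA2. For the N-terminal, the further and the C-terminal DPPA4 antibody it was called in 14 (2.05%), 32 (4.69%) and 0. Over all 35107 shared domains the counts were 79 (0.225%) for DPPA2 and 15 (0.0427%), 42 (0.120%) and 0 for these DPPA4 antibodies. The parental libraries held 146952 to 940989 reads in domains, against 6624283 and 2688073 in the control libraries that set the rule. The part of depth and of enrichment in the shorter parental domains was not tested.

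RING1B, PCGF1, MTF2 and EP300 were read in the control arms. RING1B covered at least 50% of the bases in both control lines in 126 broad domains, 18.4% (15.6 to 21.6), where the background over all shared domains was 9.38% and the 2 to 5 kb class gave 13.7%. PCGF1 reached this extent in 16 (2.34%, 1.34 to 3.78; background 0.376%, 2 to 5 kb 0.670%) and EP300 in 38 (5.56%, 3.97 to 7.56; background 4.21%, 2 to 5 kb 6.12%). MTF2 did so in 81, or 11.9% (9.53 to 14.5), below the background of 13.7% and the 19.9% of the 2 to 5 kb class. Contact over any number of bases was more frequent. RING1B touched 91.7% of broad domains in both lines (background 42.4%), EP300 89.2% (38%), MTF2 62.4% (33.2%) and PCGF1 59.9% (10.2%), and length differs between broad and other domains by definition. The control libraries ran from 177449 reads in PCGF1 domains to 6850681 in MTF2 domains. Such counts depend on enrichment as well as on depth, so shares of different proteins are not on one scale.

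The 81 broad domains with MTF2 over at least 50% of their bases in both lines formed a CpG-rich Polycomb group. Their median CpG content was 6.02 CG per 100 bp, RING1B covered a median of 72.1% and PCGF1 34.1%. In the 145 domains without MTF2 in either line these medians were 2.93 CG per 100 bp, 20.8% and 1.05%. EP300 did not follow this order as closely, with medians of 27.3% and 20.1%. The MTF2 group held, by names chosen after values were seen, NKX2-1, ZIC2, PAX6, PAX9, GATA3, LHX5, SHH, PDX1, HES1, ID2, HOXA2, HOXA13, HOXD9 and HOXD11. Of the 306 genes on the developmental transcription factor lists, 70 (22.9%) lay in 61 broad domains, and MTF2 covered at least 50% of the bases in 28 of those 61 (45.9%) against 53 of the other 622 (8.52%). The HOX domains themselves were not alike. Averaged over the 2 control lines, MTF2 covered 83.1% of the HOXD9 domain, 81.6% at HOXA13, 69.1% at HOXD11 and 57.2% over HOXB6 to HOXB8, but 10.9% at HOXB2, 4.26% over the long HOXC domain and 0% at HOXC12.

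Among the 100 longest domains, the 2 with the highest RING1B coverage lay at NKX2-1, the lineage transcription factor gene of lung and thyroid. The promoter domain (chr14:36511801-36527999, shared with SFTA3) was covered 100% in both lines by MTF2, 100% and 96.3% by RING1B, and 69.7% and 50.6% by PCGF1. EP300 covered 34.5% in shDPPA4 and none in shDPPA2+4. The neighbouring domain (chr14:36500901-36511399) was covered 100% by MTF2 and by RING1B in both lines. The IgG count was also high here, 13.3 reads per kb at the promoter domain in shDPPA4, against 409 DPPA4 reads per kb. EBF3, a neural and mesodermal transcription factor gene (chr10:129962201-129974899), NPAS3 and ZNF503 were the other 3 of the 5 highest for RING1B among the 100 longest, with 80.9% or more at the first 2 in each line, and 84.1% and 79.5% at ZNF503. The lowest were COL9A3 (11.8% in shDPPA4 and 1.81% in shDPPA2+4), MICALL2 (12.6% and 6.31%), PLEC (10.1% and 9.74%), LAMA5 (16.9% and 8.85%) and the domain of LIME1 and SLC2A4RG. COL9A3 and LAMA5 encode a collagen chain and a laminin chain.

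A smaller group carried EP300 over most of its bases. Of the 38 domains with EP300 over at least 50% of the bases in both lines, 33 did not reach this extent for MTF2 in both, and these 33 had a median of 2.34 CG per 100 bp. Names in the group, chosen after values were seen, included the immediate-early and signal-response genes JUNB, FOSL2 and DUSP6, IRF2BP2 and KDM6B, a demethylase of histone H3 lysine 27. FOXO3, a forkhead gene in the same group, had MTF2 over a mean of 77.8% of its domain. At KDM6B (chr17:7833401-7845499), EP300 covered 64.4% and 74.3% and MTF2 11.6% and 9.08%, while RING1B still covered 75.2% and 76.0%. A domain 128354 bp from the nearest protein-coding start, that of MRPS30 (chr5:44937301-44947299), was covered 63.0% and 70.0% by EP300 and not at all by MTF2, at 1.03 CG per 100 bp and with a high IgG count of 17.6 reads per kb in shDPPA4.

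CpG content separated parts of a domain as well as whole domains. The median broad domain held 4.27 CG per 100 bp, against 1.00 in the genome, 3.16 in all shared domains and 4.61 in those of 2 to 5 kb. At least 1 CpG-rich tile of 500 bp (GC above 55% and observed/expected CpG above 0.75) lay in 534 broad domains (78.2%), against 66.4% of the 2 to 5 kb class and 32.7% of all shared domains. Such tiles made up 15.2% of the tiles of broad domains and 21.0% of those of the 2 to 5 kb class, so CpG-rich tiles were found in more broad domains but filled a smaller part of them. Within broad domains, bases under MTF2 held a median of 8.45 CG per 100 bp and the remaining bases 3 in shDPPA4 (higher inside in 419 of 426 domains with enough of both), and 8.72 against 2.91 in shDPPA2+4 (406 of 412). For RING1B the medians were 5.98 against 3 and 6.38 against 3.17, for EP300 6.2 against 3.57 and 6.41 against 3.26, and for PCGF1 6.87 against 3.84 and 7.59 against 3.87. Parental DPPA2 gave a smaller contrast, 4.65 against 3.28.

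In the doxycycline arms, DPPA4 remained on nearly all broad domains but as shorter pieces. In shDPPA4 cells the median coverage of a broad domain was 98.3% in the control and 63.0% with doxycycline, and the median longest single domain 7299 and 2899 bp. A piece of at least 5 kb was still called in 92 domains (13.5%), at least 50% of the bases were still covered in 69.1% (background 0.293% and 25.9% over all shared domains), and 1 domain had no call. In shDPPA2+4 cells coverage was 95.3% and 71.9%, the longest piece 6499 and 3799 bp, at least 5 kb remained in 193 (28.3%), at least 50% of the bases in 81.7% (background 0.652% and 40.7%), and no domain lost all calls. In shared domains of 2 to 5 kb, at least 50% of the bases were covered in 48.0% for shDPPA4 and 68.4% for shDPPA2+4. Coverage was higher with doxycycline in 2 (0.293%) and 19 (2.78%) broad domains, against 1.62% and 5.63% of all shared domains. Since the control libraries chose the regions, lower values in the other arm are partly built in, and with 1 library per arm there is no replicate check.

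Reads in called domains were also compared, after scaling each library to the IgG library shared by both arms of a line. The median change was -1.22 on the log2 scale in shDPPA4 (2.34-fold lower) and -1.17 in shDPPA2+4 (2.25-fold lower). A fall of at least 2-fold was found in 432 broad domains (63.3%) and in 452 (66.2%). The background over all shared domains was 75.4% and 71.4%, and the 2 to 5 kb class gave 69.7% and 66.3%, so broad domains did not have a larger share of such falls. Reads outside called domains are not in the files, and these values therefore combine lost coverage with thinner coverage. Reads per covered base, each arm over its own covered bases, were a median of 1.40-fold lower in shDPPA4 and 1.65-fold lower in shDPPA2+4. The control value takes in bases that had no call with doxycycline, so the thinning of the bases that stayed covered was not measured. The control library was 1.78 times as large as the doxycycline library in shDPPA4 but only 0.519 times as large in shDPPA2+4, and the part of library size in these values was not tested.

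The same comparison was made with regions that the measured line had not chosen. On the 945 domains of at least 5 kb in the shDPPA2+4 control, the shDPPA4 line had a median coverage of 96.6% in its control and 64.2% in its doxycycline arm, single domains of at least 5 kb in 717 and 96, and lower coverage with doxycycline in 97.8%. On the 1515 domains chosen in the shDPPA4 control, the shDPPA2+4 line had 88.7% and 61.7%, such pieces in 704 and 212, and lower coverage in 93.8%. Reads were 2.10-fold and 2.29-fold lower. DPPA4 domains are shared between these lines, so the regions of one are not independent of the other.

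Where the pieces remained was related to what else the bases carried. To keep the libraries apart, the other proteins were read in the control cells of the line whose DPPA4 was not being measured. In shDPPA4 cells, 61.8% of the control DPPA4 bases in broad domains stayed covered. EP300 lay on 42.5% of the kept bases and 5.92% of the lost ones, RING1B on 44.2% and 10.2%, MTF2 on 26.0% and 10.1% and PCGF1 on 20.5% and 4.25%. In shDPPA2+4 cells 72.7% stayed covered, with EP300 on 31.6% of kept and 2.55% of lost bases, RING1B on 54.7% and 11.9%, MTF2 on 26.6% and 9.27% and PCGF1 on 19.2% and 3.61%. Kept bases were richer in CpG, at 4.68 against 3.57 and 4.69 against 3.40 CG per 100 bp. Across whole broad domains the order was the other way. CpG content had Spearman correlations of -0.172 (shDPPA4) and -0.113 (shDPPA2+4) with remaining DPPA4 coverage. With the log2 change in reads they were -0.413 and -0.375.

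Across broad domains, EP300 coverage in one line ran with the DPPA4 that remained in the other. The Spearman correlation over the 683 domains was 0.578 and 0.632 for EP300, 0.554 and 0.399 for RING1B, 0.288 and 0.138 for PCGF1 and 0.112 and 0.0850 for MTF2, the first of each pair being DPPA4 in shDPPA2+4. Regions share libraries, so these values describe them and carry no test. In the 171 domains with the least EP300, a median of 41.3% of the bases remained under DPPA4 in shDPPA4 and reads were 3.55-fold lower, and in the 171 with the most, 76.6% remained and reads were 1.70-fold lower. For shDPPA2+4 these values were 51.2% and 2.83-fold, and 81.3% and 1.92-fold. The density of control DPPA4 reads moved in the same order, with medians of 85.5 and 167 reads per kb in the 171 domains lowest and the 171 highest in EP300 for shDPPA4 and 36.8 and 83.8 for shDPPA2+4. Read across lines as EP300 was, control DPPA4 reads per kb had Spearman correlations of 0.576 and 0.610 with the DPPA4 coverage that remained. The first is again DPPA4 in shDPPA2+4, and both were near the values for EP300. The part of read density in this relation was not tested.

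Single domains showed how far this order went. EBF3 had the lowest remaining coverage of the 100 longest. DPPA4 covered 98.4% and 90.5% of it in the shDPPA4 and shDPPA2+4 controls and 28.3% and 19.7% with doxycycline, changes of -2.15 and -3.11 on the log2 scale, while MTF2 covered all of it and EP300 25.9% and 12.6%. The longest single control domains at EBF3 held 1042 and 415 reads over IgG counts of 32 and 92. SLC9A3, a sodium-proton exchanger gene, retained 40.8% and 32.5%, and MICALL2, NTN3 with TBC1D24 and LIME1 with SLC2A4RG completed the 5 lowest. NKX2-1, which resembled EBF3 in MTF2, lay at the other end with 94.4% and 91.3% remaining. NPAS3 retained 92.7% and 91.8%, and a domain near RCC1 90.2% and 93.7%. The HOXC domain retained 88.3% and 92.5% of its bases, but its longest piece was 13599 bp in shDPPA4 and 19599 bp in shDPPA2+4. The MRPS30 domain retained 73% and 75%, with read changes of only -0.05 and -0.31. In the 81 MTF2-rich domains the median remaining coverage was 71.2% and 74.2%, and in the 38 EP300-rich ones 85.4% and 88.6%.

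RING1B coverage differed between arms in opposite directions in the 2 lines. In shDPPA4 its median coverage of broad domains was 37.8% in the control and 46.6% with doxycycline. Coverage was higher with doxycycline in 521 domains (76.3%, background 38.3%, 2 to 5 kb 58.9%). RING1B covered at least 50% of the bases in 34.3% and then 45.7% (background 19.8% and 27.9%). In shDPPA2+4 the median was 27.1% and 19.5%, higher with doxycycline in 185 (27.1%, background 16.3%, 2 to 5 kb 26.2%). The share with at least 50% was 18.6% and 13.5% (background 11.4% and 9.9%). A RING1B domain was called in 629 broad domains (92.1%) in the shDPPA2+4 control and in 565 (82.7%) with doxycycline. Over all shared domains these shares were 45.1% and 34.9%, so fewer calls with doxycycline were not particular to broad domains. Shared domains of 2 to 5 kb differed in the same directions, with shares of 28.7% and 39.6% in shDPPA4 and 16.0% and 11.6% in shDPPA2+4. Scaled RING1B reads changed by a median of 0.00 on the log2 scale in shDPPA4, with a fall of at least 2-fold in 23 domains, 3.51% (background 9.34%). In shDPPA2+4 the median was -1, with such a fall in 314 of 629 domains, 49.9% (background 48.8%). Both medians were near those of all shared domains, -0.07 and -0.98. The control library was 0.780 and 0.619 times the size of the doxycycline library, and 1 library per arm allows no test. At the HOXC domain RING1B covered 63.5% and 73.7% in shDPPA4 and 36.0% and 21.8% in shDPPA2+4. At NR2F1 it covered 55.8% and 57.3%, and 35.9% and 8.27%.

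H1299 cells, in which both proteins were introduced, covered a part of the broad domains that differed widely between libraries. Over 12 libraries, 32.2% ± 17.9 (SD) of the bases of broad domains lay in domains of the library. For DPPA2 antibody libraries the values were 47.3% and 20.3% in replicates 1 and 2, for the Flag monoclonal antibody 40.9% and 1.32% and for the Flag superclonal antibody 37.9% and 10.9%. For the N-terminal DPPA4 antibody they were 53.8% and 11.6%, for the further DPPA4 antibody 33.2% and 34.8% and for V5 59.6% and 34.3%. Replicate 1 was higher for 5 of the 6 antibodies, and its libraries held 1010261 to 3025428 reads in domains, against 48262 to 801969 in replicate 2. Relative to its IgG control, library size was larger in replicate 2 for DPPA2 (2.29 and 2.95), Flag monoclonal (2.78 and 3.12) and V5 (2.94 and 4.24). It was smaller in replicate 2 for the other antibodies.

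Broad domains were covered slightly more than shared domains of 2 to 5 kb, which lay at 30.0% ± 16.1. The difference was 2.21 ± 2.26 percentage points (SD, n = 12), positive in 11 of 12 libraries (exact sign-flip permutation test, two-sided, p = 0.00439, Benjamini-Hochberg adjusted over 2 tests 0.00879). With a minimum length of 3 kb, which also changed the comparison class to shared domains of 2 to 3 kb, the difference was -1.48 points. Against the 2 to 5 kb class it was 0.70 points without replicate 1 (exact p = 0.281) and 3.72 without replicate 2. Libraries of a line share IgG controls and are therefore not fully independent, which makes this p too small. DPPA2-directed libraries covered 26.4% ± 18.4 and DPPA4-directed libraries 37.9% ± 17.1 (n = 6 each), a difference of -11.5 points that was within the spread between libraries (exact permutation test, two-sided, p = 0.284, adjusted 0.284).

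Most broad domains were reached in H1299 by at least some libraries. All 12 libraries had a domain in 130 of them, at least 10 in 503 and none in 42. The first count was limited by replicate 2, whose 6 libraries shared a domain in the same number, 130. Counts of libraries per domain are not given for shorter shared domains, so they are not set against a background. Flag monoclonal replicate 2 had a domain in only 20.9% of broad domains (all shared domains 3.71%, 2 to 5 kb 8.88%). For V5 replicate 1 the share was 92.1% (all shared domains 56.9%, 2 to 5 kb 82.8%). Among the 100 longest, PLEC had the highest mean coverage, 74.5% over the 12 libraries, followed by ALOXE3 with HES7 (68.2%), RHOF with SETD1B (65.7%), ID2 (64.7%) and CIRBP (64.4%), which encodes a cold-inducible RNA-binding protein. At the other end, HOXA2, SOX3, a domain 4876 bp from the SOX2 start, the domain beside NKX2-1 and that near MRPS30 had no domain in any of the 12 libraries. Parental H661 DPPA2 covered 77.8%, 76.7%, 43.5%, 84.8% and 65.9% of these, in the same order. The NKX2-1 promoter domain was reached by 10 of 12 libraries (range 0% to 26.5%) and the HOXC domain by all 12 (0.869% to 52.9%). HOX domains again differed, with mean coverage of 71.4% at HOXB2, 50.1% at HOXB4 and 0% at HOXA2. H1299 and H661 differ in genome and in expression, and copy number at the regions with no call was not tested.

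MicroRNA genes lay in some of these domains. Of 1562 human hairpins in RefSeq, 54 fell inside 48 broad domains. Mature sequences of 3 of them, from the HOXC and HOXB clusters and the let-7 family, are shown as the regulatory RNAs that these domains enclose, from RefSeq on GRCh38.p14, with the seed (bases 2 to 8) in capitals.
hsa-miR-196a-5p (chr12:53991762-53991783, plus strand, in the HOXC domain): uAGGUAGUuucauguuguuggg
hsa-miR-10a-5p (chr17:48579904-48579926, minus strand, in the HOXB4 domain): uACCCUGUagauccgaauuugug
hsa-let-7b-5p (chr22:46113691-46113712, plus strand, in a 6399 bp domain near PPARA): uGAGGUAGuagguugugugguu
The miR-196a and miR-10a genes sit between HOX genes and the let-7b gene in its host transcript. Averaged over both doxycycline arms, the domains that hold them retained 90.4%, 61.7% and 60.1% of their bases under DPPA4, and the mean H1299 coverage was 27.9%, 50.1% and 40.7%.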

How the data were processed

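CUT&RUN was analysed in 30 antibody libraries of 38 (the other 8 were IgG controls). The authors aligned reads to hg38, and the submitters' processing notes name Trim Galore 0.6.6, BWA 0.7.13, SAMtools 1.9, Picard 2.6.0, deepTools 3.5.0 and MACS2. The deposited EPIC2 tables give, per domain and library (bins of 100 bp), read counts in the library and its IgG control, the log2 fold change over IgG and an FDR (adjusted p-value). The study's methods state an EPIC2 version and settings, including a gap allowance, for histone ChIP and reChIP only. Those used for CUT&RUN, other than the bin size and FDR limit, are not given in the sources used here, and domain length depends on them. The deposited MACS2 tables give narrow peaks with fold enrichment and −log10 q, and were used to count peaks and as an alternative. Each library was called on its own. The authors' domain files were kept as deposited apart from limits of FDR 0.05 and log2 fold change 1 (MACS2 fold 2) on autosomes and X. No list of artefact-prone regions was applied.

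Coverage is the percent of a region's bases in a library's domains, and a region carried a protein when at least 50% was covered. Between arms, reads in called domains were divided by the library's size relative to its IgG control, which follows from the constant offset between the counts and the log2 values. Control and doxycycline libraries of a line share that IgG control (identical IgG counts at 445 of 445, 535 of 535, 1436 of 1436 and 892 of 892 identical domains), and bases without a doxycycline domain count as 0. Promoters were taken from GENCODE 44 canonical transcripts of 19970 protein-coding genes (start ± 1500 bp). H661 had 1 library per group, so nothing there was tested. H1299 libraries were compared by exact sign-flip and exact permutation tests over libraries. The labels do not say that H1299 replicates came from separate cultures, so p-values describe variation among these samples, possibly technical. Same-numbered H1299 replicates deviated together in 5 of 6 antibodies (replicate 1 higher), DPPA4 being the exception, and number by itself was not taken as pairing.

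Total reads are not in the tables. Reads in domains, 48262 to 6850681 per library, are given instead and depend on enrichment as well as on library size. Intervals on shares are exact binomial (95%) and cover counting error over regions only. Regions were named by the protein-coding promoters they touch, or else by the nearest start. Those in the text are the 10 longest, 4 on either side of the 5 kb limit, and, among the 100 longest, the 5 highest and 5 lowest for remaining DPPA4, RING1B and H1299 coverage, with up to 6 genes per gene list. Further list members and further HOX, histone and microRNA regions were chosen after values were seen. Regions and gene lists were chosen with earlier results of these data known. Alternatives covered the fold limit, minimum length, choice of line, extent of coverage, the MACS2 peaks, the left-out replicate and the replicate block. The code was tested on simulated data. Python 3.11.15, pandas 2.3.3, NumPy 2.4.6 and SciPy 1.17.1 were used. Some genes that the naming rule selected are not reported here.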

Additional observations from a re-analysis of the deposited data

Results flagged for a closer look

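The share of broad DPPA4 domains with RING1B over at least 50% of their bases was 11.4 percentage points higher with doxycycline than in the control in shDPPA4 cells, and differed by -5.12 points in shDPPA2+4 cells. The pair stood out because the arms differ in opposite directions in the 2 lines. The difference between the lines was not tested, because each line and arm had 1 RING1B library. The libraries held 1540857 and 2464625 reads in RING1B domains in the shDPPA4 control and doxycycline arms, and 864120 and 854501 in those of shDPPA2+4. The control library was 0.780 times the size of the doxycycline library in shDPPA4 and 0.619 times in shDPPA2+4. The part of reads and of library size in the shares was not tested. The same directions were found in shared domains of 2 to 5 kb (28.7% and 39.6%, and 16.0% and 11.6%) and in all shared domains (19.8% and 27.9%, and 11.4% and 9.9%), so the pattern was not particular to broad domains.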

How the results depend on the processing

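No region share kept its value under every alternative, and H661 values have no replicate. Values follow in the order RING1B, PCGF1, MTF2, EP300, parental DPPA2, parental DPPA4N, doxycycline DPPA4 (shDPPA4, shDPPA2+4) and doxycycline RING1B (same lines), as percent of broad domains carrying the protein. Coverage of at least 25% gave 51.8, 12.4, 26.2, 34.0, 95.2, 87.0, 94.1, 98.0, 79.8 and 38.9. At 75% it was 4.83, 0.439, 5.27, 0.293, 18.7, 2.64, 25.9, 41.9, 17.3 and 4.54. Narrow MACS2 peaks gave 12.4, 0, 5.86, 0.146, 36.2, 11.3, 43.9, 44.2, 8.93 and 3.51. A log2 limit of 2 gave 11.4, 1.20, 9.19, 0.753, 61.4, 28.6, 57.5, 72.1, 29.2 and 5.87. Without the fold limit, EP300 was 9.06 and doxycycline RING1B in shDPPA2+4 16.4. A minimum of 3 kb gave 2969 domains, a promoter share of 65.4%, RING1B 14.4, MTF2 15.1, DPPA2 50.5, DPPA4N 26.6, doxycycline DPPA4 57.5 and 74.8 and doxycycline RING1B in shDPPA4 40.2. At 8 kb there were 136 domains, promoter share 79.4%, EP300 3.68, DPPA2 88.2, DPPA4N 56.6, doxycycline DPPA4 83.8 and 89.7 and doxycycline RING1B in shDPPA4 55.9. Choice in shDPPA4 alone gave 1515 domains, promoter share 58.7%, RING1B 12.6, MTF2 9.31, DPPA2 53.5, DPPA4N 25.3, doxycycline DPPA4 51.0 and 64.0 and doxycycline RING1B 33.7 and 9.04. Choice in shDPPA2+4 alone gave promoter share 64.7%, DPPA4N 40, doxycycline DPPA4 in shDPPA2+4 85.0 and doxycycline RING1B 50.1 and 16.3. Regions bounded by the shDPPA4 domain gave DPPA2 69.9 and DPPA4N 39.7. At a minimum of 3 kb the H1299 comparison was with shared domains of 2 to 3 kb, and the difference was -1.48 points (exact sign-flip p = 0.00732). The excess over 2 to 5 kb domains was 1.14 with shDPPA4 bounds (exact p = 0.0684) and 1.08 with choice in shDPPA4 alone (exact p = 0.0879). It was 0.700 to 3.72 leaving out replicate 1 or 2. With the replicates of each antibody averaged, the excess over 2 to 5 kb domains was 2.21 (exact sign-flip p = 0.0313, the smallest value that 6 antibodies allow). In the replicate block, with labels permuted within each replicate number, the DPPA2 against DPPA4 difference was -11.5 (exact permutation p = 0.105). That difference missed the threshold in all 14 alternatives. The cause of these shifts was not tested, beyond the settings' own construction. Depth differs between libraries and limits coverage, and domains hold no reads outside calls.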
